A study of Macaca mulatta with 19 samples.

Results

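The 10 genes described here encode receptors of insulin and insulin-like growth factors (IGFs), or proteins that pass the signal on to the nucleus. INSR, IGF1R and IGF2R are receptor genes, and IRS1 and IRS2 adaptor genes. PIK3R1 encodes a regulatory subunit of PI3-kinase, AKT1 and AKT2 encode kinases, and FOXO1 and FOXO3 encode transcription factors. The 10 genes were chosen by name, as the rows of the count table that carry these symbols. Each symbol matched 1 row of the 32386 genes in the table. All 10 passed the filter on low counts, which kept 15019 genes, and no library held fewer than 592 reads of any of them. Fold changes of these 10 genes are therefore not limited by counting depth.

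RNA was measured in luteinized granulosa cells, the hormone-producing cells that line an ovarian follicle, of 19 rhesus macaques, with 1 library for each animal. From about the time of first menstruation every animal carried an implant and ate 1 of 2 diets for about 3.5 years. Its naturally selected follicle was then aspirated close to ovulation in a cycle whose ovulation was timed. Implants held cholesterol (C), the control, or testosterone (T), which raised testosterone 4 to 5 fold above C, and diets were chow or a Western-style diet (WSD). The groups are Chow+C (chow, cholesterol implant, 4 animals), Chow+T (chow, testosterone implant, 4 animals), WSD+C (Western-style diet, cholesterol implant, 5 animals) and WSD+T (Western-style diet, testosterone implant, 6 animals). The oocyte of each follicle was labelled as MI (metaphase I, still in the first meiotic division), MII (metaphase II, mature), degenerating or GV (germinal vesicle, not yet resumed meiosis). MI oocytes came from 3 Chow+C, 3 WSD+C and 2 WSD+T animals. MII oocytes came from 1 Chow+C, 2 Chow+T and 1 WSD+T animal. Degenerating oocytes came from 1 Chow+T, 2 WSD+C and 3 WSD+T animals, and the GV oocyte from 1 Chow+T animal. Ages, a batch and a sort of the aspirated cells are not given in the labels.

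Insulin and IGF1 bind the receptor tyrosine kinases made from INSR and IGF1R, which phosphorylate the adaptors IRS1 and IRS2. The adaptors recruit PI3-kinase, whose lipid product activates the AKT kinases, and AKT keeps the FOXO transcription factors out of the nucleus. In the follicle this cascade acts together with gonadotropins on granulosa cell growth, survival and steroid synthesis, and FOXO1 is known in rodents to fall when granulosa cells luteinize.

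Gene counts per library ranged from 28832132 to 56385679, and reads in genes made up 49.1% to 69.1% of the reads counted. Of 10 measured granulosa cell markers, 9 reached 1 CPM (counts scaled to a common library size) in all 19 libraries, and LHCGR, the receptor of luteinizing hormone, did so in 18. White blood cell markers varied widely between libraries: the mean log2 CPM of 11 leukocyte markers ran from 0.68 to 3.04 in Chow+C, 0.44 to 3.80 in Chow+T, -0.67 to 7.04 in WSD+C and 1.97 to 7.52 in WSD+T. SRGN, the proteoglycan serglycin, was high in every library. Summed without it, the other leukocyte markers reached 54.7 CPM in Chow+C, 131 in Chow+T, 1681 in WSD+C and 2078 in WSD+T. The libraries WSD+C 4 (7.04) and WSD+T 6 (7.52) stood apart in that level. WSD+C 4 also had the lowest granulosa marker level (mean log2 CPM 6.02) and the highest erythroid marker level (9.28). Its summed smooth muscle markers (2699 CPM, at most 180 in any other library), oocyte markers (209 CPM, at most 16.2) and lymphocyte markers (497 CPM, at most 38.7) were also the highest, as were those of theca and stroma (339 CPM). Treatment differences of the receptor genes and of IRS1 that rest on WSD+C 4 or WSD+T 6 are given with and without them. In such bulk samples fewer cells of a type and less RNA per cell cannot be told apart.

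The level of none of the 10 genes passed the test for diet or for testosterone. With edgeR's quasi-likelihood test and Benjamini-Hochberg adjustment, 0 of 10 had an adjusted p under 0.05 for diet on cholesterol implants, diet on testosterone implants, testosterone on chow or testosterone on the Western-style diet, beside 0% of all genes tested in each of the 4. At an unadjusted p under 0.05, 0 of 10 passed in each comparison, where 5.08%, 4.97%, 7.18% and 3.86% of all genes passed. The libraries of the compared groups overlapped for all 10 genes in all 4 comparisons, while 0.553%, 1.17%, 2.66% and 0.0732% of all genes had groups that did not overlap. With other tests, scalings and filters, and with any single library left out, 0 of 10 passed the adjusted threshold in every case run. The confidence intervals below give the range of differences these animals allow.

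**Figure D1:**
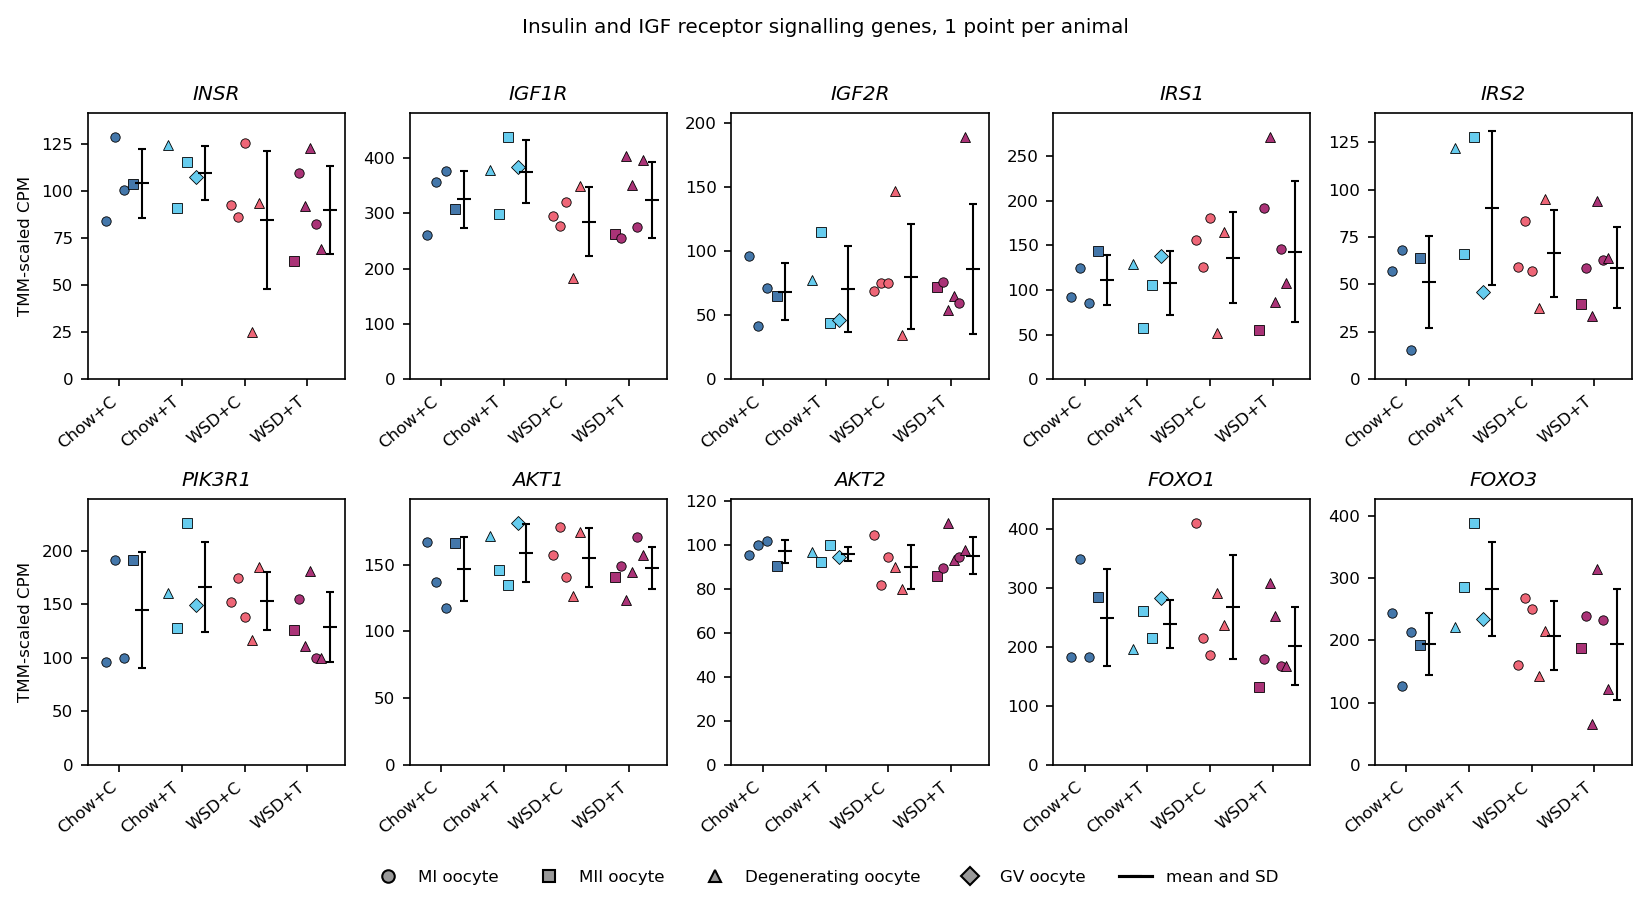
Level of each of the 10 genes in TMM-scaled CPM (y axis, from 0) by treatment group (x axis). Each point is 1 animal, its shape marks the oocyte class, and bars give the group mean and SD; the groups overlap in every panel, AKT2 is the tightest with 79.8 to 110.0 CPM, and 1 IGF2R value of 189 CPM stands above the other WSD+T libraries.

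INSR, the insulin receptor gene (ENSMMUG00000028907), had its lowest levels in animals on the Western-style diet, in groups that overlapped. It stood at 84.3, 128.5, 100.4 and 103.6 CPM in the Chow+C libraries and at 124.6, 90.7, 115.5 and 107.3 CPM in the Chow+T libraries. The WSD+C libraries stood at 92.8, 86.0, 125.5, 25.3 and 93.4 CPM. In WSD+T the lowest, median and highest were 63.0, 87.2 and 123 CPM. The value of 25.3 CPM belongs to WSD+C 4, and the other 4 WSD+C libraries lie inside the range of Chow+C. In WSD+T 3 of 6 libraries (63.0, 69.2 and 82.5 CPM) lie below every chow library. The group means were 104 ± 18.3 CPM (SD, n = 4) in Chow+C, 109.5 ± 14.4 (n = 4) in Chow+T, 84.6 ± 36.5 (n = 5) in WSD+C and 89.8 ± 23.2 (n = 6) in WSD+T. The diet difference on cholesterol implants was -0.30 on the log2 scale (95% confidence interval -0.95 to 0.35), with an adjusted p of 0.914 by edgeR's quasi-likelihood test. Without WSD+C 4 it was -0.07. On testosterone implants the diet difference was -0.29 (-0.91 to 0.34; adjusted p = 0.919 in the same edgeR fit), and between -0.39 and -0.20 with any 1 library left out. The testosterone difference of INSR was 0.07 on chow (-0.62 to 0.76) and 0.09 on the Western-style diet (-0.51 to 0.68). Without WSD+C 4 the latter was -0.14.

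IGF1R, which encodes the IGF1 receptor (ENSMMUG00000012305), ranged from 183 CPM in WSD+C 4 to 438 CPM in Chow+T 3 over the 19 libraries. The Chow+C libraries spanned 260.5 to 376.5 CPM, the Chow+T libraries 299 to 438, the WSD+C libraries 183 to 349 and the WSD+T libraries 256 to 403.5. These 4 ranges share the span between 299 and 349 CPM. Diet gave log2 differences of -0.19 (SE 0.209) on cholesterol implants and -0.21 (SE 0.201) on testosterone implants, and testosterone gave 0.21 (SE 0.221) on chow and 0.19 (SE 0.190) on the Western-style diet. Each of these differences is smaller than or close to its standard error, and the widest interval among them, testosterone on chow, was -0.26 to 0.67. Without WSD+C 4 the diet difference on cholesterol implants was -0.07 and the testosterone difference on the Western-style diet 0.07. With MI and MII libraries alone, the diet difference on testosterone implants was -0.49 (unadjusted p = 0.0493 in the edgeR fit). That fit sets 2 MII libraries of Chow+T against 2 MI and 1 MII libraries of WSD+T, so oocyte class also differs between the groups. Over all oocyte classes but without Chow+T 3, this diet difference was -0.12.

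IGF2R, the mannose 6-phosphate receptor that takes up IGF2 and carries it to the lysosome (ENSMMUG00000015658), had the widest spread of the receptor genes. It stood at 95.8, 41.5, 71.5 and 64.8 CPM in Chow+C and at 77.8, 114.9, 43.5 and 46.0 CPM in Chow+T. WSD+C held 68.6, 75.2, 75.0, 146.8 and 34.8 CPM, and WSD+T a lowest, median and highest of 54.1, 68.6 and 189 CPM. The highest values of both diet groups come from WSD+C 4 (147 CPM) and WSD+T 6 (189 CPM), the libraries with the most leukocyte markers, and the lowest of all, 34.8 CPM, from WSD+C 5. Diet gave a log2 difference of 0.23 (95% confidence interval -0.67 to 1.12) on cholesterol implants and of 0.29 (-0.58 to 1.15) on testosterone implants. Both turned to -0.11 when WSD+C 4 and WSD+T 6 were left out. Testosterone gave 0.04 (-0.90 to 0.99) on chow and 0.10 (-0.70 to 0.91) on the Western-style diet. The first was -0.29 without Chow+T 2, and the second moved between -0.29 without WSD+T 6 and 0.44 without WSD+C 4.

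IRS1, the first of the receptor adaptors (ENSMMUG00000019467), ranged from 52.0 CPM in WSD+C 4 to 271 CPM in WSD+T 3. Its means were 111 ± 27.6 CPM (SD, n = 4) in Chow+C, 108 ± 36.2 (n = 4) in Chow+T, 136 ± 51.0 (n = 5) in WSD+C and 143 ± 78.5 (n = 6) in WSD+T. The means on the Western-style diet stand above those on chow, but the lowest library of each Western-style diet group, 52.0 and 55.3 CPM, lies below every chow library. Diet gave 0.29 (-0.58 to 1.16) on cholesterol implants and 0.41 (-0.43 to 1.25) on testosterone implants, with adjusted p of 0.960 and 0.908 by edgeR's quasi-likelihood test. The first was 0.16 without WSD+C 3 and 0.49 without WSD+C 4, and the second was 0.13 without WSD+T 3. Testosterone gave -0.05 on chow and 0.07 on the Western-style diet.

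IRS2, the adaptor whose transcription responds to FOXO factors in liver (ENSMMUG00000021790), had the largest fitted differences among the 10 genes. Its level was 57.1, 68.1, 15.2 and 64.1 CPM in Chow+C and 122.1, 66.2, 127.6 and 46.1 CPM in Chow+T. WSD+C held 59.0, 83.5, 56.8, 37.4 and 94.9 CPM, and WSD+T a lowest, median and highest of 33.3, 60.6 and 93.9 CPM. Chow+T 1 and Chow+T 3 are the highest of all 19 libraries, the other 2 Chow+T libraries lie among the Chow+C values, and Chow+C 3 is by itself at the bottom. In order of the means the groups were Chow+T (90.5 ± 40.6 CPM, SD, n = 4), WSD+C (66.3 ± 22.9, n = 5), WSD+T (58.7 ± 21.4, n = 6) and Chow+C (51.1 ± 24.4, n = 4), and each neighbouring pair overlapped. Testosterone on chow gave a log2 difference of 0.82 (SE 0.436, 95% confidence interval -0.09 to 1.74; unadjusted p = 0.0755 and adjusted p = 0.694 by edgeR's quasi-likelihood test). It was 0.53 without Chow+C 3 and 1.05 without Chow+T 4, the latter at an unadjusted p under 0.05 in the edgeR fit. Chow+T holds no MI library and Chow+C holds 3, so oocyte class also differs between these groups. On the Western-style diet the testosterone difference was -0.18 (-0.96 to 0.60). Diet gave 0.38 (-0.50 to 1.25) on cholesterol implants, which was 0.08 without Chow+C 3, and -0.62 (-1.45 to 0.20) on testosterone implants, which was -0.41 without Chow+T 3.

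The difference between the testosterone effects on the 2 diets was tested as an interaction. For IRS2 it was -1.0 on the log2 scale (SE 0.571, 95% confidence interval -2.20 to 0.20; unadjusted p = 0.0972, adjusted p = 0.933 by edgeR's quasi-likelihood test), the largest of the 10 genes. FOXO3 followed with -0.64 (SE 0.487, unadjusted p = 0.205 in the same edgeR fit) and PIK3R1 with -0.45 (SE 0.353). The IRS2 interaction was -0.70 without Chow+C 3 and -1.22 without Chow+T 4, the latter at an unadjusted p under 0.05. That of FOXO3 was -0.44 without Chow+T 3. With all libraries kept, 0 of 10 passed at an unadjusted p under 0.05, beside 4.52% of all genes tested.

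PIK3R1, the regulatory subunit that docks PI3-kinase on the IRS proteins (ENSMMUG00000011532), ranged from 95.8 CPM in Chow+C 1 to 226 CPM in Chow+T 3. Its means were 145 ± 54.0 CPM (SD, n = 4) in Chow+C, 166 ± 42.3 (n = 4) in Chow+T, 153 ± 27.3 (n = 5) in WSD+C and 129 ± 32.8 (n = 6) in WSD+T. The Chow+C libraries split into 95.8 and 100.03 CPM for replicates 1 and 3 and 192 and 191 CPM for replicates 2 and 4, which brackets nearly the whole range of the other groups. The fitted differences ran from -0.37 (-0.88 to 0.14) for diet on testosterone implants to 0.20 (-0.36 to 0.76) for testosterone on chow. Without Chow+T 3, the highest library, these were -0.18 and 0.01, and the interaction of PIK3R1 was -0.26.

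AKT1 and AKT2, the kinases at the centre of the cascade, were the steadiest of the 10. AKT1 (ENSMMUG00000001044) ranged from 117 to 181 CPM and AKT2 (ENSMMUG00000003621) from 79.8 to 110.0 CPM over the 19 libraries, with coefficients of variation of 12.8% and 7.87%. Their fitted biological coefficients of variation, which remove counting error and differences between groups, were 0.191 and 0.158. The value of AKT2 was in the lowest 0.127% of all genes tested, and that of AKT1 in the lowest 3.59%. Hence their intervals are narrow: over the 4 comparisons the AKT2 differences lay between -0.11 and 0.08, and the most extreme interval bounds were -0.34 and 0.29. The AKT1 differences lay between -0.10 and 0.11, with extreme interval bounds of -0.41 and 0.45. For AKT2 a change of the size of the IRS2 difference on chow falls outside every interval. For INSR, IGF2R, IRS1, IRS2, PIK3R1 and FOXO3 the intervals of the diet comparisons reach past 0.82 in size, up or down, in at least 1 of the 2.

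FOXO1, the FOXO factor most studied in granulosa cells (ENSMMUG00000030780), ranged from 132 CPM in WSD+T 1 to 411 CPM in WSD+C 1. Its means were 249.8 ± 81.9 CPM (SD, n = 4) in Chow+C, 239 ± 40.05 (n = 4) in Chow+T, 268 ± 88.4 (n = 5) in WSD+C and 201 ± 65.7 (n = 6) in WSD+T. WSD+T has a median of 174 CPM, with 4 of 6 libraries below the lowest WSD+C library, and its remaining libraries at 252.5 and 308 CPM. Testosterone on the Western-style diet gave -0.41 (SE 0.253, -0.95 to 0.12; unadjusted p = 0.121 and adjusted p = 0.999 by edgeR's quasi-likelihood test). It was -0.21 without WSD+C 1, -0.58 without WSD+T 3 (unadjusted p = 0.0332) and -0.76 with MI and MII libraries alone (unadjusted p = 0.0462), with an adjusted p of 1 in the latter 2 edgeR fits. The other 3 differences lay between -0.25 and 0.10.

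FOXO3, a related factor (ENSMMUG00000020369), stood at 244.2, 126.4, 214.0 and 191.7 CPM in Chow+C and at 221.9, 285.8, 388.9 and 233.4 CPM in Chow+T. WSD+C held 159.9, 268.2, 250.9, 142.4 and 214.8 CPM, and WSD+T a lowest, median and highest of 65.3, 210 and 314.5 CPM. Of the 4 Chow+T libraries, 2 exceed every Chow+C library and the other 2 lie between Chow+C 3 and Chow+C 1. WSD+T spans from the lowest library of all, WSD+T 3, to the second highest. Testosterone on chow gave 0.54 (SE 0.371, -0.24 to 1.32; unadjusted p = 0.161 and adjusted p = 0.750 by edgeR's quasi-likelihood test) and 0.35 without Chow+T 3. With MI and MII libraries alone it was 0.81 (unadjusted p = 0.0159 in the edgeR fit). There 2 Chow+T libraries remain, each with an MII oocyte, against 3 MI and 1 MII libraries of Chow+C. Oocyte class therefore differs between these groups along with testosterone. Diet on testosterone implants gave -0.55 (-1.25 to 0.16; unadjusted p = 0.120), with -0.35 without Chow+T 3 and -0.74 without WSD+T 4, the latter at an unadjusted p under 0.05. On cholesterol implants diet gave 0.10, and on the Western-style diet testosterone gave -0.10.

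**Figure D2:**
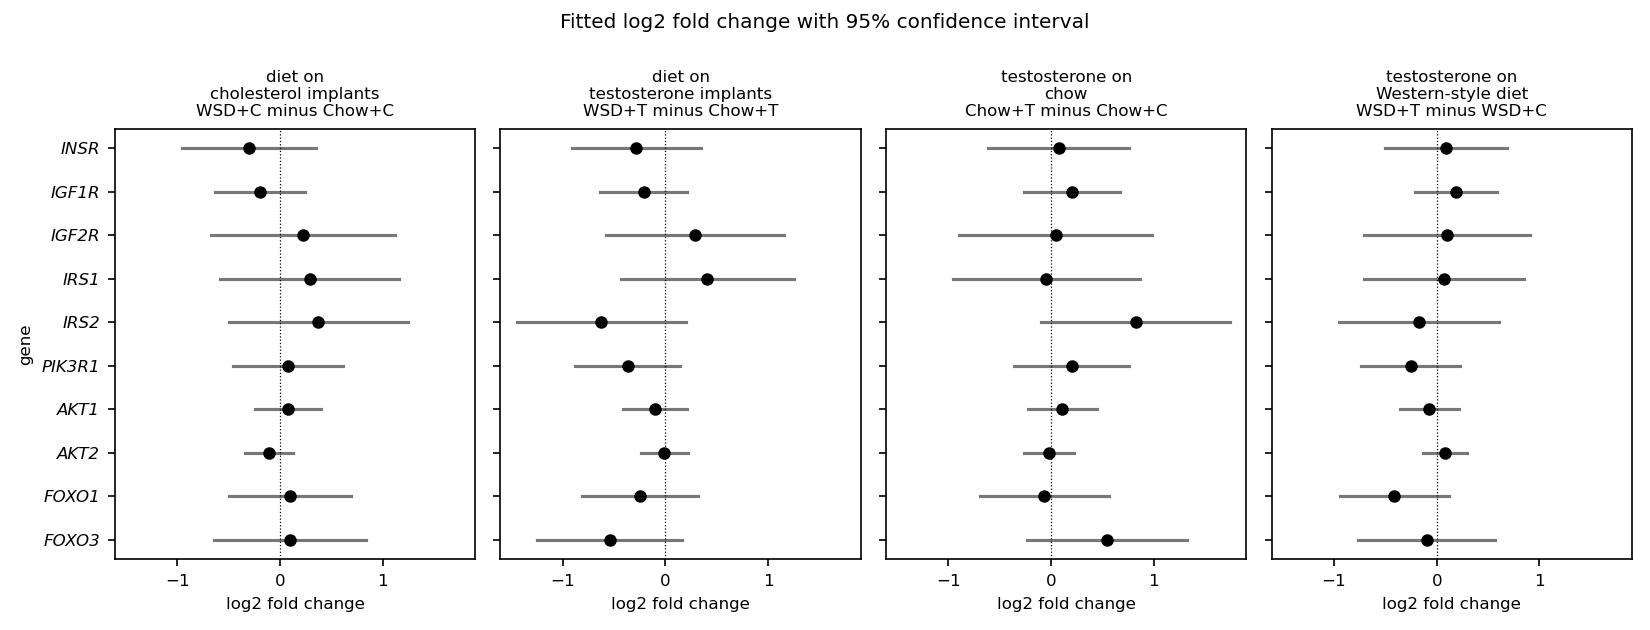
Fitted log2 fold change (x axis) of each of the 10 genes (rows) for diet on each implant and testosterone on each diet, with points for the estimate and bars for the 95% confidence interval. Every bar crosses 0; those of AKT1 and AKT2 are the shortest, and the IRS2 point for testosterone on chow lies farthest from 0, at 0.82.

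Read as a list, the 10 genes had positive differences in 7 of 10 for diet on cholesterol implants (median 0.09) and in 2 of 10 for diet on testosterone implants (median -0.23). Over all genes tested, 52.6% and 55% were positive, with medians of 0.02 and 0.04. For testosterone, 7 of 10 were positive on chow (median 0.09) and 5 of 10 on the Western-style diet (median 0.00), beside 48.2% and 50% of all genes (medians -0.02 and -0.00). The comparisons share groups: each group enters 2 of the 4. Treatment group accounted for 3.31% (IGF2R) to 22.8% (IGF1R) of the variance of a gene's log2 level over the libraries, and the median over all genes tested was 13.3%, so most of the variation of each gene lay between animals of 1 group.

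Variation between animals fell unevenly on the 10 genes and libraries. The ratio of the highest to the lowest library was 8.37 for IRS2, 5.95 for FOXO3, 5.43 for IGF2R, 5.21 for IRS1 and 5.09 for INSR, and it was 1.38 for AKT2. WSD+C 4 was the lowest library for INSR, IGF1R and IRS1, and Chow+T 3 was the highest for IGF1R, IRS2, PIK3R1 and FOXO3. Correlations between the 10 genes were computed for all 45 pairs, a step added after the data were seen. By Pearson's r on log2 levels over the 19 libraries, 0 of 45 pairs passed a permutation test after Benjamini-Hochberg adjustment. The closest were INSR with IGF1R (r = 0.685, permutation p = 0.0038, adjusted 0.085) and IRS2 with PIK3R1 (r = 0.654, permutation p = 0.0017, adjusted 0.076). The first was 0.241 without WSD+C 4 and WSD+T 1, the libraries farthest from the median of INSR, and therefore rests on them. IRS2 with PIK3R1 had a Spearman's rho of 0.709 (permutation p = 0.0010, adjusted 0.045), an r of 0.531 without Chow+C 3 and Chow+T 3, and an r of 0.639 after group means were subtracted.

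The receptor genes also differed in how they went with the leukocyte markers. INSR was lower in libraries with a higher leukocyte marker level (r = -0.644, permutation p = 0.0054, adjusted 0.04 over the 10 genes; rho = -0.488, permutation p = 0.036, adjusted 0.36). IGF2R was higher in them (r = 0.593, permutation p = 0.0081, adjusted 0.04; rho = 0.296, permutation p = 0.22, adjusted 0.58). No other gene of the 10 had an adjusted p under 0.05 for r, and 0 of 10 did for rho. Without WSD+C 4 and WSD+T 6 the r of INSR was -0.245 and that of IGF2R 0.055, so both relations rest on these 2 libraries. After group means were subtracted, r was -0.689 for INSR and 0.580 for IGF2R. With the leukocyte level as a covariate in the edgeR fit, the diet difference on testosterone implants was -0.01 for INSR and -0.08 for IGF2R, compared with -0.29 and 0.29 without it, and neither passed the threshold either way. The part of white blood cells, of red blood cells and of the lower granulosa marker level of WSD+C 4 in these levels was not tested beyond this.

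**Figure D3:**
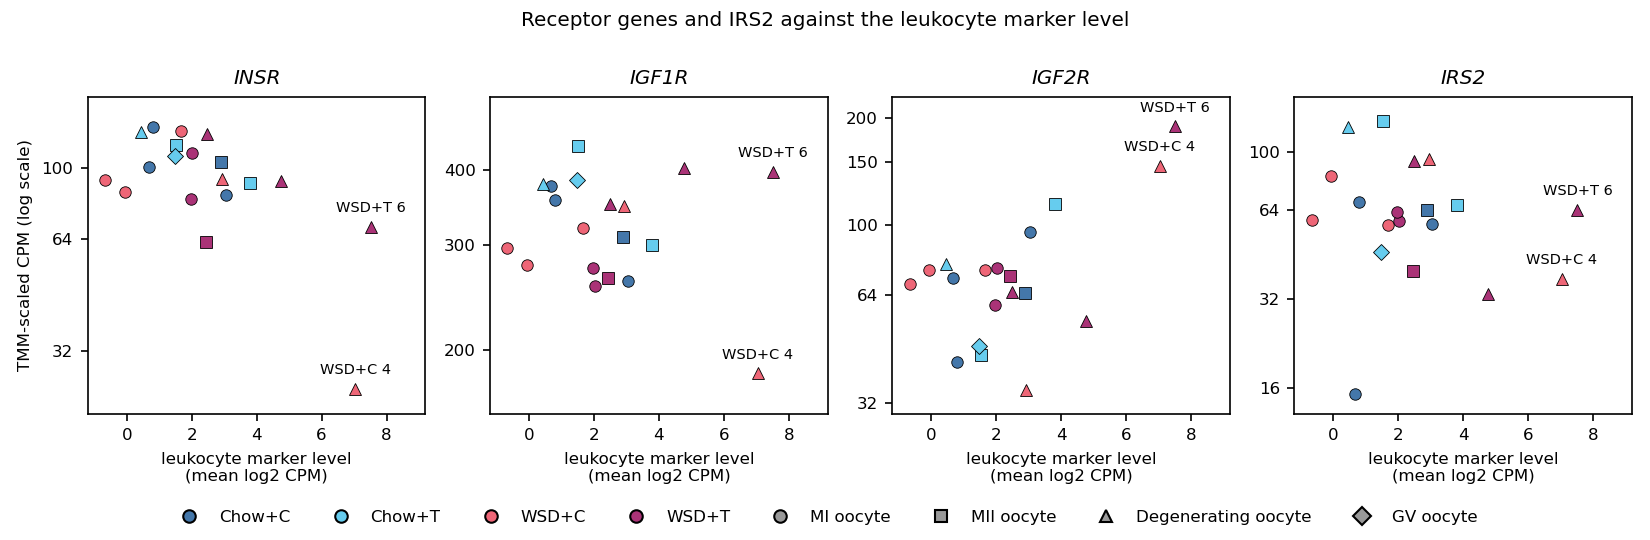
Level of INSR, IGF1R, IGF2R and IRS2 (y axes, TMM-scaled CPM on a log scale) against the mean log2 CPM of 11 leukocyte markers (x axes), 1 point per animal, coloured by group and shaped by oocyte class. WSD+C 4 and WSD+T 6 lie at 7.04 and 7.52 on the x axes, away from the other 17 libraries, with the lowest INSR value (25.3 CPM) and the highest IGF2R values (147 and 189 CPM).

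For each of the 10, the genes whose log2 levels followed it most closely over the 19 libraries, after group means were subtracted, were listed as a description. INSR went most closely with YIPF2 (r = 0.930) and CIB2 (0.921). IGF1R went with HIBCH (0.888) and WBP2 (0.849), and IGF2R with SESN3 (0.880), KCNAB2 (0.873) and BMP2K (0.866). SESN3, a sestrin that restrains mTOR, is also on the list of FOXO targets used below. The adaptor IRS1 went with OXA1L (0.897), DENND10 (0.871) and IL21 (0.861), IRS2 with RGCC (0.862), GGNBP2 (0.831) and ST7L (0.792), and PIK3R1 with BNC2 (0.827), FEM1B (0.818) and TMF1 (0.817). AKT1 went with HMGN1 (0.836), TNFRSF21 (0.827) and CTDSPL (0.801), and AKT2 with GTPBP10 (0.833), CD200R1L (0.832) and KRT80 (0.815). FOXO1 went with IGSF11 (0.843), ULBP3 (0.816) and TPMT (0.804), and FOXO3 with MB21D2 (0.915), AMD1 (0.881) and SPAG1 (0.880). With 19 libraries and 15019 genes searched, high values of r arise among unrelated genes, and no test is given. Each r includes WSD+C 4 and WSD+T 6. WSD+C 4 held the lowest INSR level (25.3 CPM), and these libraries held the highest IGF2R levels (147 and 189 CPM). The r values without them were not computed. None of these neighbours is another of the 10.

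The rest of the pathway was read from lists of 78 further genes, of which 71 were in the table and 66 were tested. At the adjusted threshold 0 of 66 passed in each of the 4 comparisons by edgeR's quasi-likelihood test. At an unadjusted p under 0.05, 1 passed for diet on cholesterol implants (1.52%), 4 for diet on testosterone implants (6.06%), 5 for testosterone on chow (7.58%) and 0 for testosterone on the Western-style diet (0%), beside 5.08%, 4.97%, 7.18% and 3.86% of all genes. The genes named next are those that passed this unadjusted threshold, with the ligands and binding proteins, and none is a call.

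Among the ligands, IGF1 (ENSMMUG00000002235) ranged from 3.73 CPM in Chow+C 1 to 41.3 CPM in Chow+T 2 and IGF2 (ENSMMUG00000047449) from 13.6 CPM in WSD+T 6 to 203 CPM in Chow+T 4. The IGF2 means were 91.4 ± 25.9 CPM (SD, n = 4) in Chow+C, 134 ± 47.6 (n = 4) in Chow+T, 115 ± 60.4 (n = 5) in WSD+C and 87.1 ± 40.6 (n = 6) in WSD+T. Testosterone on chow gave 0.55 for IGF2 and 0.63 for IGF1, and on the Western-style diet -0.40 and -0.07, with no unadjusted p under 0.05. Some binding proteins, which hold IGFs outside the cell, had a wider spread between animals than any of the 10 genes: IGFBP1 ran from 6.14 to 197 CPM and IGFBP4 from 49.9 to 1194 CPM. IGFBP5, at 618 to 3925 CPM, and IGFBP7, at 53.5 to 163 CPM, varied less. WSD+C 4 held the lowest level of IGFBP4, of PAPPA, the protease that cleaves it (16.9 CPM, up to 277 elsewhere), and of STC1, a stanniocalcin (15.02 CPM, up to 1318 elsewhere). Of 10 binding proteins, proteases and stanniocalcins tested, 1 passed the unadjusted threshold in any of the 4 comparisons, STC2, an inhibitor of that protease. It had -2.33 for testosterone on chow (unadjusted p = 0.0467 by edgeR's quasi-likelihood test), with Chow+C 2 at 12.9 CPM, and -1.04 without that library. STC2 stood at 0.09 to 0.56 CPM in the libraries with an MII oocyte and at 1.30 to 12.9 CPM in those with an MI oocyte. Chow+T holds no MI library, so testosterone and oocyte class cannot be told apart in this difference.

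Among 6 PI3-kinase subunits, PIK3CA (ENSMMUG00000005188), the catalytic partner of PIK3R1, was the gene with the smallest p. Its level was 50.7, 36.3, 48.0 and 57.6 CPM in Chow+C and 50.2, 70.4, 88.1 and 81.9 CPM in Chow+T. WSD+C held 53.2, 58.1, 54.0, 41.3 and 43.4 CPM, and WSD+T ran from 36.4 to 62.4 CPM. In Chow+T 3 of 4 libraries lie above every library of the other groups, and Chow+T 1 lies among them. Testosterone on chow gave 0.59 (SE 0.211, 95% confidence interval 0.15 to 1.04; unadjusted p = 0.0116, adjusted p = 0.658 by edgeR's quasi-likelihood test), and diet on testosterone implants gave -0.61 (-1.01 to -0.21; unadjusted p = 0.00486, adjusted p = 0.862). These 2 comparisons share the Chow+T libraries. None of these has an MI oocyte, so oocyte class differs along with testosterone in the first and along with diet in the second. Over the alternatives run the first ranged from 0.48 to 0.74 and the second from -0.75 to -0.38. On cholesterol implants diet gave 0.05, on the Western-style diet testosterone gave -0.07, and the interaction was -0.67 (unadjusted p = 0.0274, adjusted p = 0.933 in the same edgeR fit).

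Among 14 FOXO partners and target genes, CCNG2 (ENSMMUG00000000914), a cyclin that restrains the cell cycle and a known FOXO target, and GADD45A, a stress response gene, passed the unadjusted threshold for testosterone on chow. CCNG2 held 38.0 to 68.9 CPM in the Chow+C libraries and 75.9 to 148 CPM in the Chow+T libraries, so these groups did not overlap, as for 2.66% of all genes. Its difference was 0.78 (SE 0.337, unadjusted p = 0.0324, adjusted p = 0.661 by edgeR's quasi-likelihood test), that of GADD45A 0.77 (unadjusted p = 0.0405). With the Western-style diet on testosterone implants CCNG2 had a difference of -0.76 (unadjusted p = 0.0218). Chow+T holds no MI library, so oocyte class also differs between the groups in these comparisons. Without Chow+T 3 the CCNG2 differences were 0.52 for testosterone on chow and -0.49 for diet on testosterone implants, and that of GADD45A was 0.51, each no longer past the unadjusted threshold. For diet on testosterone implants over all libraries, FOXO3 itself had -0.55 and FOXO1 -0.25, neither past a threshold. BCL2L11, a FOXO target that promotes cell death, had an interaction of -1.49 (unadjusted p = 0.0383), which was -0.69 without Chow+T 2.

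**Figure D4:**
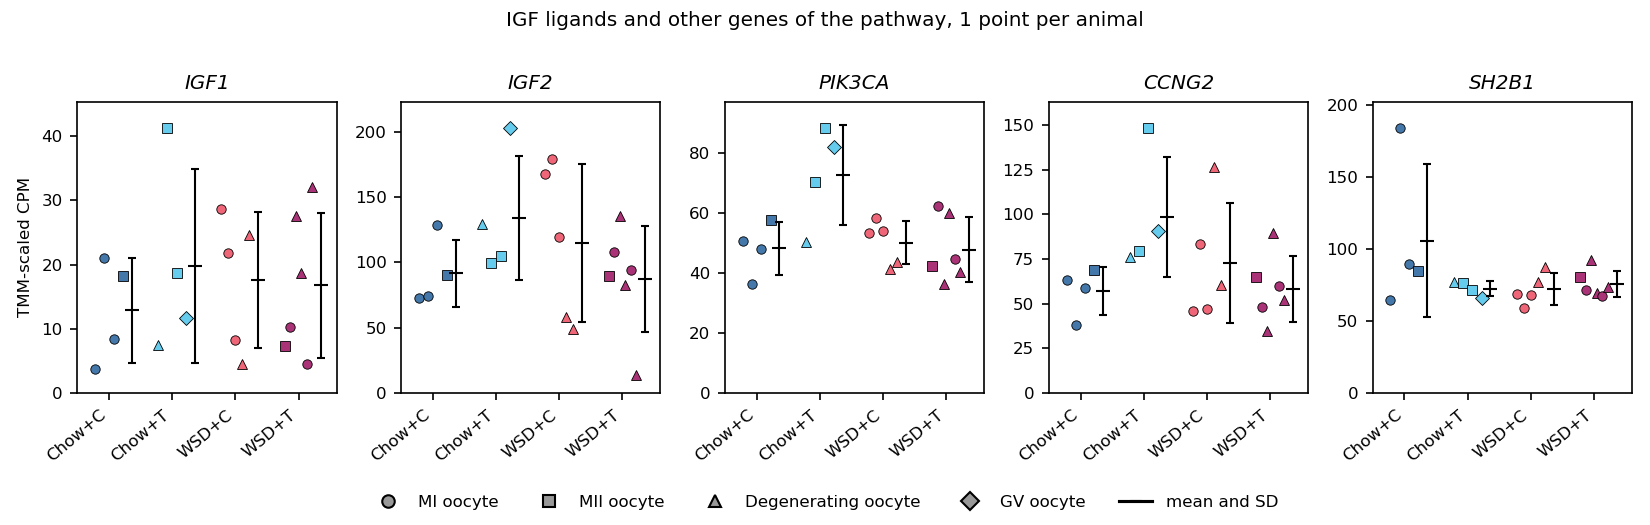
Levels of the ligands IGF1 and IGF2, the PI3-kinase subunit PIK3CA, the FOXO target CCNG2 and the adaptor SH2B1 in TMM-scaled CPM (y axes) by treatment group (x axes), 1 point per animal with the group mean and SD. PIK3CA and CCNG2 are highest in Chow+T, with means of 72.6 and 98.6 CPM, and 1 Chow+C library at 184 CPM stands apart for SH2B1.

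Of 7 further adaptors, SH2B1, which binds the activated insulin receptor, had a difference of -0.55 for diet on cholesterol implants (SE 0.225, unadjusted p = 0.0244, adjusted p = 0.830 by edgeR's quasi-likelihood test) and of -0.55 for testosterone on chow (unadjusted p = 0.0349). Both comparisons use Chow+C, where Chow+C 2 stood at 184 CPM. Without that library both differences shrank, to -0.14 and -0.14, and it was also the library with the smallest share of reads in genes, 49.1%. None of 14 genes of the AKT and mTOR axis passed the unadjusted threshold in any of the 4 comparisons. Of 13 genes that damp the pathway, PHLPP1, a phosphatase of AKT, had -0.50 for diet on testosterone implants (unadjusted p = 0.0467). INPP5D, a lipid phosphatase of blood cells, had 3.85 in that comparison (unadjusted p = 0.0439), with 36.1 CPM in WSD+T 6, the library with the highest leukocyte marker level. Without that library it was 1.45, and with the leukocyte level as a covariate (INPP5D, diet on testosterone implants) it was 0.39, neither past the unadjusted threshold.

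The last comparison was between oocyte classes, with treatment group as a term in the fit, and the 10 genes showed no call there either. At the adjusted threshold 0 of 10 passed in both comparisons, beside 0% of all genes. Follicles with a degenerating oocyte (6 libraries) against MI (8) gave 0 of 10 genes at an unadjusted p under 0.05 by edgeR's quasi-likelihood test, where 15.4% of all genes passed, and MII (4) against MI gave 0 of 10, where 3.9% passed. The median log2 difference was 0.02 in the first (5 of 10 positive) and -0.04 in the second (3 of 10). Over all genes tested, 54.2% and 53.1% were positive, with medians of 0.05 and 0.03. With a degenerating oocyte FOXO3 had -0.44 (unadjusted p = 0.204 in the edgeR fit). It was -0.28 without WSD+T 3 and -0.76 without WSD+T 4, the latter at an unadjusted p under 0.05. IGF1R had 0.165, and 0.364 without WSD+C 4, that also at an unadjusted p under 0.05. IGF2R had 0.37 and INSR -0.27, but without WSD+C 4 these were 0.03 and 0.02, and with the leukocyte level as a covariate the signs turned, to -0.59 and 0.18. With an MII oocyte IRS1 had -0.44, which ran from -1.41 without Chow+C 4 (at an unadjusted p under 0.05) to -0.05 without WSD+T 1. INSR had -0.40, which grew to -0.77 when Chow+C 4 was left out and was -0.03 under the leukocyte covariate.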

How the data were processed

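The authors deposited unnormalized read counts by gene for 19 libraries, each 1 animal, so p-values measure the spread between animals. Libraries were polyA-selected and non-directional, per the labels' protocols. The submitters' processing notes name Trimmomatic, a read trimmer, and STAR, an aligner. Tool versions, genome build and gene annotation were not given in the sources used here, so no coordinates are printed. Without strand, reads of overlapping antisense genes cannot be told apart. The 4 rows that name no gene (30.9% to 50.9% of reads) were left out.

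Differences were tested with edgeR 4.0.16 (R 4.3.3): filterByExpr (minimum count 10, minimum total 15), TMM scaling, and the robust quasi-likelihood test, two-sided, with Benjamini-Hochberg adjustment over 15019 genes, with 0.05 as the threshold. The 4 groups were fitted together over all 19 libraries. A second fit of 18 libraries (16036 genes) compared oocyte classes with treatment group as a term. CPM values are TMM-scaled, and log2 levels use a prior count of 1. Correlations were tested with 100000 permutations. Depth limits only counting error, since reads carry no molecular identifiers. The fit was also run on simulated data in which changes were planted between the diets only. The testosterone comparisons held no planted change there, and the outcome is not used here.

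The 10 genes and the gene lists were chosen with earlier results of these data known. All 10 are described. Of the other lists, genes with an unadjusted p under 0.05 are named, at most 3 a list and comparison, besides ligands and binding proteins. The 3 genes most like each of the 10 had a symbol, a mean log2 CPM of at least 0 and the highest r; 2 of these genes are not reported here. Alternatives were DESeq2 1.42.0 and its size factors, limma-voom (limma 3.58.1), upper-quartile scaling, no filter, no robust shrinkage, only the groups compared, covariates (leukocyte level, oocyte class), MI and MII libraries alone, and leaving out libraries.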

Additional observations from a re-analysis of the deposited data

Results flagged for a closer look

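IGF2R stood at 188.9 CPM in the library WSD+T 6, while the other 5 WSD+T libraries held 54.1 to 75.9 CPM. Its gap to the nearest library is 0.838 of the range of the group, above the critical value of 0.625 for 6 samples. This library also had the highest leukocyte marker level of all 19, and its macrophage markers summed to 3312 CPM. Of 40 combinations of gene and group examined in this way 1 was picked out, where chance picks about 1 in 20.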

How the results depend on the processing

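No paired analysis was possible because each library is 1 animal and replicate numbers, given here in accession order, pair nothing across groups. Of 50 fold changes (10 genes, 4 comparisons and the interaction), 26 changed sign under at least 1 alternative, 6 reached an unadjusted p under 0.05 in at least 1, and 0 an adjusted p under 0.05, the smallest being 0.346. No scaling moved the median of all genes by over 0.1. Over all genes, where edgeR called 0, DESeq2 called 4 for diet on testosterone implants, 5 for testosterone on chow, 3 for the interaction, 962 for degenerating against MI oocytes and 6 for MII against MI. With MI and MII libraries alone, edgeR called 1 for diet on testosterone implants and 4 for testosterone on chow. In that fit Chow+T holds 2 libraries, each with an MII oocyte. Leaving out each library in turn gave 0 to 352 calls for degenerating against MI (352 without Chow+T 1) and 0 for the other comparisons. Of the 10 genes, the number whose r with the leukocyte level passed was 2, 0 to 2 with 1 library left out (0 without Chow+C 1, Chow+C 2, Chow+T 2, Chow+T 3, Chow+T 4, WSD+C 4 or WSD+T 6), 0 without WSD+C 4 and WSD+T 6, and 2 without SRGN; leaving SRGN out and leaving out single libraries here were chosen after seeing the data. Between degenerating and MI oocytes, IGF2R turned from 0.37 to -0.59 and INSR from -0.27 to 0.18 with the leukocyte level as a covariate, none of them at an unadjusted p under 0.05. Of the genes past that threshold, the sign reversed for PIK3CD (-0.12 without WSD+C 4 and WSD+T 6, -0.53 with the leukocyte level as a covariate) and, with that covariate, for TXNIP (-0.28), INPP5D (-0.16) and PIK3CG (-0.44). INPP5D was -0.13 for diet on testosterone implants with MI and MII libraries alone. The cause was not tested.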

Other observations

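Of 67 further genes of insulin and IGF signalling tested in the fit of oocyte classes, 10 passed the unadjusted threshold between degenerating and MI oocytes (14.9%, beside 15.4% of all genes), 7 higher and 3 lower, with 0 at the adjusted threshold. The share lies close to that of all genes, and the values below are given as a description. INPP5D (4.85) and PIK3CG (5.19), both known from white blood cells, had the largest differences (adjusted p = 0.138 for each by edgeR's quasi-likelihood test). INPP5D stood at 39.6 CPM in WSD+C 4 and 36.1 CPM in WSD+T 6, and at most at 4.22 CPM elsewhere. In the same direction, 13 of 13 macrophage, 13 of 13 lymphocyte and 10 of 11 leukocyte markers passed the unadjusted threshold. So did 5 of 8 smooth muscle, 4 of 8 erythroid and 3 of 6 endothelial markers. IGFBP3 (-1.09) and PAPPA2, a protease of IGF binding proteins (-1.28), had negative differences at an unadjusted p under 0.05. With MII against MI these had -1.62 and -1.69. Of 10 binding proteins, proteases and stanniocalcins, 3 were lower with MII at an unadjusted p under 0.05 by edgeR's quasi-likelihood test. Over all genes 3.9% passed that threshold, and the lowest difference of the list was -3.12. The part of white blood cells in these values was not tested beyond the fits with the leukocyte covariate given above.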
